A study of Mus musculus with 6 samples.

Results

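Cholesterol biosynthesis and its control by the sterol regulatory element-binding proteins (SREBPs) were examined through 27 genes in whole-liver RNA-Seq of 3 sgPrdx2 and 3 sgCtrl mice. The genes were taken from the deposited count matrix by their symbols. All 27 were among its 52459 genes, and all 27 had enough reads to be tested along with 17032 genes in all. They comprise 18 enzymes, 5 genes of SREBP control and 4 further SREBP targets. Of the 27 genes, 26 had a higher mean level in sgPrdx2 than in sgCtrl livers after TMM normalization, and 22 did after scaling to total counts or to 6 housekeeping genes. Fdft1, Tm7sf2, Msmo1 and Stard4 rose past an adjusted p of 0.05, and none of the 27 fell past it. All 18 enzymes were higher under each of the 3 scalings.

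All mice were male Alb-Cre/Cas9 F1 animals on the C57BL6J strain, in which albumin-driven Cre switches on Cas9 in the liver. The guide RNA, against Prdx2 (sgPrdx2) or a control (sgCtrl), was delivered intravenously in AAV8 at 4 to 5 weeks of age. Every mouse in both groups then received 100 mg/kg diethylnitrosamine (DEN), a liver carcinogen, 3 weeks later and, from 1 week after that, a choline-deficient high-fat diet (CDAHFD) for 6 months, and the livers were taken at 8 months of age. Neither group was free of DEN or diet, so the comparison is between guides in injured livers only. The study aimed the knockout at hepatocytes through this Cas9 and the AAV8 vector, so other liver cells were not its target. By immunohistochemistry the study reported that PRDX2 protein was suppressed in hepatocytes of the knockout livers. It also described PRDX2-positive islets, which it held to be most likely cells that the vector had not reached. Livers are named by mouse, sgCtrl 5.1, 7.1 and 7.2 and sgPrdx2 1.1, 1.3 and 3.2, and values are given in that order throughout.

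The pathway builds cholesterol from acetyl-CoA. Its first steps make mevalonate and from it the isoprenoid units, a middle stretch joins these into squalene and closes the rings of lanosterol, and a long tail of oxidations, reductions and an isomerization turns lanosterol into cholesterol. Transcription of nearly all of these enzymes is driven by SREBP-2, which is held in the endoplasmic reticulum together with its escort SCAP by the INSIG proteins when sterol is plentiful, and is moved to the Golgi, cleaved and released to the nucleus when sterol is scarce. SREBP-1c, from Srebf1, is regulated more by insulin and by the oxysterol receptor LXR and favors fatty acid genes. RNA levels do not measure cleavage of either protein. Other enzymes of the pathway were not analysed here.

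Libraries held 37462102 to 56865293 counts. Livers of both groups expressed hepatocyte markers at high levels, and no gene of the 6 marker lists was at 0 in any liver. Albumin took 6.61 to 7.01% of counts in sgCtrl and 9.28 to 11.3% in sgPrdx2 livers, and the TMM factors, which correct library sizes for such shifts, were 1.12 to 1.17 and 0.805 to 0.951. Along the first principal component (44.9% of variance) sgPrdx2 liver 3.2 stood apart at 61.0, beyond livers 1.1 and 1.3 at 19.7 and 10.9 and the sgCtrl livers at -39.4 to -26.0. Prdx2 mRNA measured 109.3, 116.7 and 132.0 TMM-normalized CPM (counts scaled to a common library size) in sgCtrl and 99.0, 111.9 and 149.2 CPM in sgPrdx2 livers, with a log2 fold change of 0.01 (SE 0.18, adjusted p = 0.983). The groups overlapped, so Prdx2 counts did not check the labels.

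Each gene was tested with edgeR's quasi-likelihood test, adjusted by the method of Benjamini and Hochberg over all 17032 genes. Among all genes, 1.79% rose (305) and 1.54% fell (262), and among the 27 genes 4 rose and 0 fell. At an unadjusted p below 0.05, 21 of the 27 were higher and 0 lower, where 13.0% of all genes were higher and 11.9% lower. For 20 of the 27 every sgPrdx2 liver lay above every sgCtrl liver and for 0 below, beside 16.7% and 17.5% of all genes. Their median log2 fold change was 0.80, beside -0.02 over all genes.

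**Figure D1:**
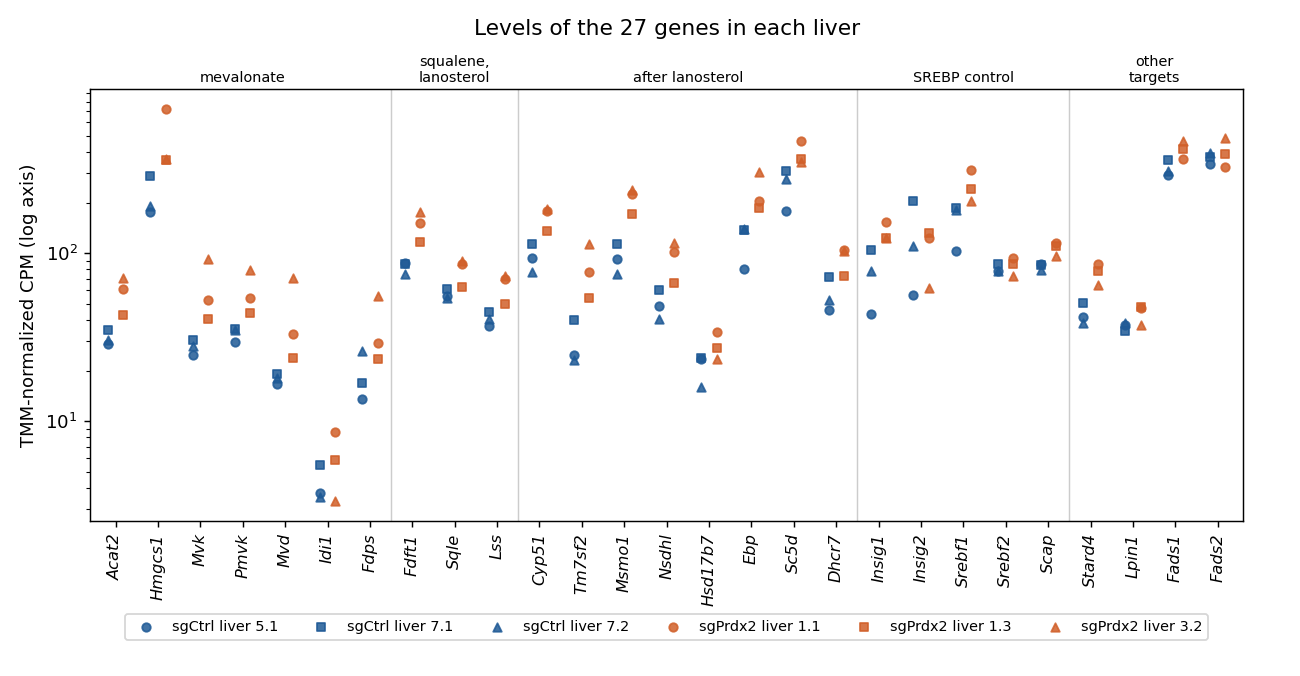
TMM-normalized CPM (log axis) of the 27 genes in each liver, 1 point per liver, with sgCtrl in blue and sgPrdx2 in orange and genes grouped by their role. For 20 genes the 3 orange points lie above the 3 blue ones, whereas Idi1, Fdps, Hsd17b7, Insig2, Srebf2, Lpin1 and Fads2 overlap.

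The number of calls depended on the test and the scaling. DESeq2 called 15 of the 27 higher and 0 lower, while it called 7.58% of all genes higher and 5.78% lower. Limma-voom called the same 4 genes as edgeR. Scaling to total counts alone shifted the median of all genes to -0.39 and that of the 27 to 0.42, and scaling to 6 housekeeping genes shifted them to -0.38 and 0.41. Such scalings move all genes nearly alike, so the distance of the 27 from all genes (0.81 with TMM) is by construction almost the same under each. With total counts 2 of the 27 were called (Tm7sf2 and Msmo1) and with housekeeping scaling 0, beside 1.21% and 0.411% of all genes called higher. At an unadjusted p below 0.05, 12 and 8 of the 27 were higher, beside 3.19% and 2.72% of all genes. Calls over all genes became 206 higher and 3041 lower with total counts, and 70 higher and 919 lower with housekeeping scaling. Omission of 1 liver also cost calls: 0 of the 27 and 0 of all genes passed edgeR's threshold without sgCtrl 5.1, sgCtrl 7.2, sgPrdx2 1.1 or sgPrdx2 1.3, although 16 to 19 of the 27 and 3114 to 3993 of all genes then had an unadjusted p below 0.05. Without sgCtrl 7.1 there were 2 calls (Tm7sf2 and Msmo1), and without sgPrdx2 3.2 there were 3 (Mvk, Msmo1 and Stard4).

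The mevalonate steps had a median log2 fold change of 0.93 over 7 genes. None was called by edgeR, whereas 6 had an unadjusted p below 0.05 and DESeq2 called 5 (Acat2, Hmgcs1, Mvk, Pmvk and Mvd). Acat2, the cytosolic thiolase that joins acetyl-CoA units, measured 28.7, 35.0 and 30.4 CPM in sgCtrl and 60.9, 42.8 and 71.2 CPM in sgPrdx2 livers. The groups did not overlap, and the log2 fold change was 0.89 (SE 0.20, adjusted p = 0.0530). Of the 50-base stretches of its transcripts, 45.9% also occur in Acat3, so reads of these neighbors may be divided between them, and Acat3 itself differed by 0.68 on the log2 scale (adjusted p = 0.0693). Hmgcs1, HMG-CoA synthase of the cytosol, measured 175.5, 290.0 and 190.7 CPM against 723.2, 357.9 and 362.5 CPM. All sgPrdx2 livers were higher, liver 1.1 by far, with a log2 fold change of 1.14 (SE 0.32, adjusted p = 0.0889). The antisense gene Gm48342 overlaps Hmgcs1 and holds 13.6% of its 50-base stretches. Mvk, mevalonate kinase, stood at 24.9, 30.5 and 27.9 CPM and at 52.8, 40.7 and 92.1 CPM. Its sgCtrl livers were close together while the sgPrdx2 livers spread more than their lowest value exceeded the highest control, and the log2 fold change was 1.16 (SE 0.28, adjusted p = 0.0650).

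For Mvk, and for the kinase and the decarboxylase that follow it, the sgPrdx2 livers ranked 3.2, 1.1 and 1.3 from high to low. Pmvk, phosphomevalonate kinase, measured 29.6, 35.4 and 35.1 CPM in sgCtrl and 54.3, 44.0 and 79.4 CPM in sgPrdx2 livers. The ranges were apart, with a log2 fold change of 0.83 (SE 0.22, adjusted p = 0.0741). Mvd, which makes isopentenyl diphosphate, measured 16.7, 19.0 and 18.1 CPM and 33.0, 23.8 and 71.6 CPM. Liver 3.2 was the highest and liver 1.3 the lowest of the sgPrdx2 group, and the log2 fold change was 1.25 (SE 0.37, adjusted p = 0.0936). Idi1, the isomerase of isopentenyl diphosphate, was low, at 3.72, 5.52 and 3.54 CPM against 8.64, 5.90 and 3.35 CPM. Here liver 3.2 was the lowest of all 6, the groups overlapped, and the log2 fold change of 0.49 (SE 0.34) did not pass the test (adjusted p = 0.404). Fdps, farnesyl diphosphate synthase, measured 13.5, 16.8 and 26.3 CPM and 29.3, 23.3 and 55.5 CPM. Liver 1.3 lay below sgCtrl 7.2, so the groups overlapped, and the log2 fold change was 0.93 (SE 0.36, adjusted p = 0.162). Some 30.5% of the 50-base stretches of Idi1 occur in other genes, mostly pseudogenes and an antisense gene, and 11.7% of those of Fdps occur in Gm43738, a gene that overlaps Fdps on the same strand, so their counts are less certain.

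At squalene and lanosterol, 1 of 3 genes rose, all 3 had an unadjusted p below 0.05 and DESeq2 called 2. Fdft1 encodes squalene synthase, the first enzyme committed to sterols (GRCm38 chr14:63145150-63179578, minus strand). It measured 87.9, 86.1 and 74.9 CPM in sgCtrl and 150.8, 116.9 and 175.7 CPM in sgPrdx2 livers. The groups were well apart and Fdft1 rose by a log2 fold change of 0.83 (SE 0.18, adjusted p = 0.0487). This call was lost without any 1 of the livers, at adjusted p = 0.129 without sgCtrl 5.1, 0.0899 without 7.1, 0.172 without 7.2, 0.157 without sgPrdx2 1.1, 0.0729 without 1.3 and 0.0566 without 3.2. Exons of Ctsb on the other strand cover part of Fdft1, and 30.7% of its 50-base stretches occur in other genes, so without known strandedness its reads cannot be wholly assigned. Sqle, squalene epoxidase, measured 55.7, 60.9 and 54.5 CPM and 86.7, 62.8 and 90.1 CPM. Only a narrow gap separated liver 1.3 from sgCtrl 7.1, with a log2 fold change of 0.49 (SE 0.16, adjusted p = 0.127). Lss, lanosterol synthase, measured 37.0, 44.9 and 40.3 CPM and 70.6, 50.2 and 73.5 CPM. No sgPrdx2 liver overlapped the controls, and the log2 fold change was 0.67 (SE 0.17, adjusted p = 0.0718).

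Of the steps after lanosterol 2 of 8 genes rose, and Tm7sf2 had the largest fold change of the 27 genes with all livers, although without sgPrdx2 3.2 Hmgcs1 exceeded it (log2 fold changes of 1.32 and 1.17). Tm7sf2, a sterol ring reductase (GRCm38 chr19:6062821-6068373, minus strand), measured 24.7, 40.2 and 23.1 CPM in sgCtrl and 76.9, 54.1 and 113.4 CPM in sgPrdx2 livers. The ranges did not overlap and Tm7sf2 rose by a log2 fold change of 1.47 (SE 0.31, adjusted p = 0.0491), or 2.78-fold. Exons of Vps51 on the same strand cover 12.1% of the exon bases of Tm7sf2, although 0% of its 50-base stretches occur in other genes. Msmo1, the methylsterol monooxygenase that removes methyl groups from the ring (GRCm38 chr8:64718139-64733792, minus strand), measured 92.9, 113.4 and 75.0 CPM and 225.3, 170.7 and 238.3 CPM. Even liver 1.3 was well above the highest control, and Msmo1 rose by a log2 fold change of 1.17 (SE 0.20, adjusted p = 0.0392), or 2.25-fold. Msmo1 kept its call without sgCtrl 7.1 (adjusted p = 0.0390) or sgPrdx2 3.2 (0.0464) and lost it without 5.1 (0.120), 7.2 (0.143), 1.1 (0.144) or 1.3 (0.0708). Tm7sf2 kept it only without 7.1 (0.0427), with 0.147 without 5.1, 0.168 without 7.2, 0.147 without 1.1, 0.0730 without 1.3 and 0.0624 without 3.2.

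The demethylase and dehydrogenase that work beside Msmo1 were also higher in every sgPrdx2 liver. Cyp51, lanosterol demethylase, measured 94.1, 114.2 and 77.1 CPM in sgCtrl and 177.6, 136.0 and 182.1 CPM in sgPrdx2 livers. The groups were apart, with a log2 fold change of 0.80 (SE 0.19, adjusted p = 0.0613). Nsdhl, a sterol dehydrogenase that takes part in removing ring methyl groups, measured 48.7, 60.6 and 40.7 CPM and 101.4, 66.4 and 114.7 CPM. Liver 1.3 was just above sgCtrl 7.1, and the log2 fold change was 0.91 (SE 0.23, adjusted p = 0.0709). Hsd17b7, the ketosterol reductase of the same complex, measured 23.5, 23.8 and 15.9 CPM and 34.1, 27.3 and 23.3 CPM. It was the exception, since liver 3.2 fell within the control range, and its log2 fold change was 0.42 (SE 0.20, adjusted p = 0.240).

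Further down the tail, Ebp, the sterol isomerase, measured 80.6, 137.6 and 138.9 CPM in sgCtrl and 204.4, 185.2 and 302.7 CPM in sgPrdx2 livers. The groups did not overlap, and the log2 fold change was 0.96 (SE 0.27, adjusted p = 0.0864). Sc5d, the sterol desaturase, measured 179.5, 307.7 and 277.3 CPM and 464.3, 362.4 and 348.7 CPM. Liver 1.1 was highest here and the spread of the controls was wide, with a log2 fold change of 0.62 (SE 0.23, adjusted p = 0.148). Dhcr7, the reductase of dehydrocholesterol, measured 46.1, 71.9 and 52.4 CPM and 105.0, 73.4 and 103.3 CPM. Liver 1.3 exceeded sgCtrl 7.1 only slightly, and the log2 fold change was 0.73 (SE 0.21, adjusted p = 0.0949). DESeq2 called 6 of the 8 genes after lanosterol, all but Hsd17b7 and Sc5d.

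**Figure D2:**
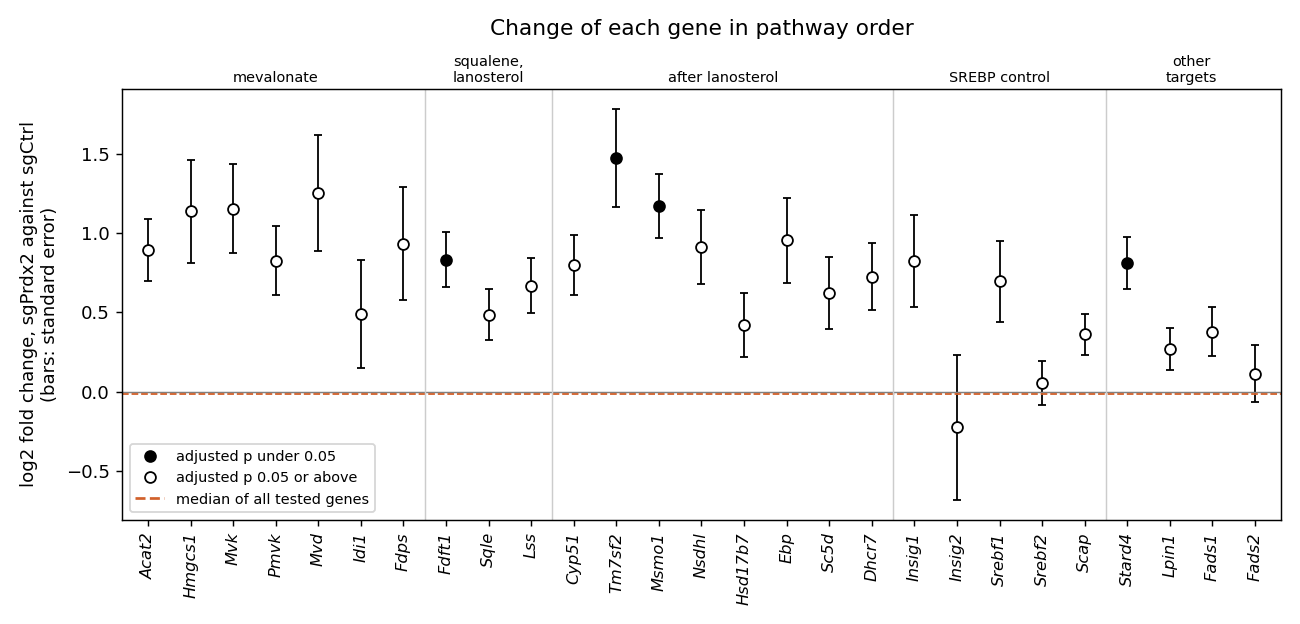
Log2 fold change (sgPrdx2 against sgCtrl, n = 3 livers each) of the 27 genes in pathway order, with standard errors as bars. Filled points (Fdft1, Tm7sf2, Msmo1 and Stard4) passed edgeR's test, the dashed line is the median of all tested genes, and Insig2 alone lies below 0. With total counts or housekeeping scaling 5 of the 27 lie below 0.

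Summed over the 18 enzymes, the level was 1063, 1493 and 1202 CPM in sgCtrl and 2659, 1844 and 2501 CPM in sgPrdx2 livers. The order of livers was shared by many genes but not by all. Over the 27 genes sgCtrl 7.1 was the highest control for 21 and sgPrdx2 1.3 the lowest of its group for 15. The top liver of all 6 was 3.2 for 15, 1.1 for 10 and 1.3 and 7.1 for 1 each. Yet sgPrdx2 3.2 was the lowest of its group for 10 of the 27. Liver 3.2 also differed from the other sgPrdx2 livers by transcript length. Its ratio to livers 1.1 and 1.3 had a Spearman correlation with length of -0.53 over the 27 genes and -0.44 over 16556 genes, and with GC content of 0.44 and 0.33, where all points share the same libraries. The fold changes themselves correlated with length at -0.45 over the 27 genes and -0.29 over 16574 genes. After a trend on length and GC content had been removed from each library, a correction added after the data were seen, edgeR called 7 of the 27 higher (Acat2, Mvk, Fdft1, Cyp51, Tm7sf2, Msmo1 and Stard4), beside 3.17% of all genes, with a median of 0.79.

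The 5 genes of SREBP control did not share 1 pattern, and none was called by edgeR. Their median log2 fold change was 0.36 with TMM, 0.00 with housekeeping scaling and -0.003 with total counts. An unadjusted p below 0.05 was reached by 3, and DESeq2 called 1 (Insig1). Insig1, the INSIG that is itself an SREBP target, measured 43.4, 104.1 and 78.2 CPM in sgCtrl and 153.9, 123.1 and 122.9 CPM in sgPrdx2 livers. All sgPrdx2 livers were above the controls, of which 5.1 was low, and the log2 fold change was 0.83 (SE 0.29, adjusted p = 0.140). Insig2, its paralog, known in liver for a transcript lowered by insulin, measured 56.3, 205.0 and 110.1 CPM and 124.0, 131.6 and 61.7 CPM. The groups overlapped widely and the highest and lowest values came from controls, with a log2 fold change of -0.23 (SE 0.46, adjusted p = 0.783) that became 0.35 without sgCtrl 7.1 and 0.06 without sgPrdx2 3.2.

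Of the transcription factor genes, Srebf1 was higher in every sgPrdx2 liver and Srebf2 was not. Srebf1, from which SREBP-1a and SREBP-1c are made and whose counts do not separate these isoforms, measured 103.7, 184.6 and 180.9 CPM in sgCtrl and 314.7, 241.5 and 203.3 CPM in sgPrdx2 livers. Controls ran lower, 5.1 most of all, with a log2 fold change of 0.70 (SE 0.26, adjusted p = 0.154). Srebf2, encoding SREBP-2, measured 78.3, 86.5 and 78.5 CPM and 93.2, 86.4 and 72.9 CPM. The groups overlapped, and the log2 fold change was 0.05 (SE 0.14, adjusted p = 0.829) and changed sign to -0.31 with total counts, -0.30 with housekeeping scaling and -0.03 without sgPrdx2 1.1. Scap, the escort, measured 85.9, 85.2 and 79.3 CPM and 115.7, 110.0 and 96.2 CPM. Its groups did not overlap, with a log2 fold change of 0.36 (SE 0.13, adjusted p = 0.142), which was -0.003 with total counts. Scap exons overlap the antisense gene 5830462I19Rik, which holds 13.1% of its 50-base stretches.

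Ratios within a liver do not depend on scaling between libraries, and these pairs were chosen after their values had been seen. The ratio of Insig1 to Insig2 counts was 0.771, 0.508 and 0.711 in sgCtrl and 1.24, 0.935 and 1.99 in sgPrdx2 livers, all of the latter above the former, for a log2 difference of 1.02. The ratio of Srebf1 to Srebf2 counts was 1.33, 2.14 and 2.31 in sgCtrl and 3.38, 2.79 and 2.79 in sgPrdx2 livers, again with no overlap, for a log2 difference of 0.67. They are given as a description, with no test.

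**Figure D3:**
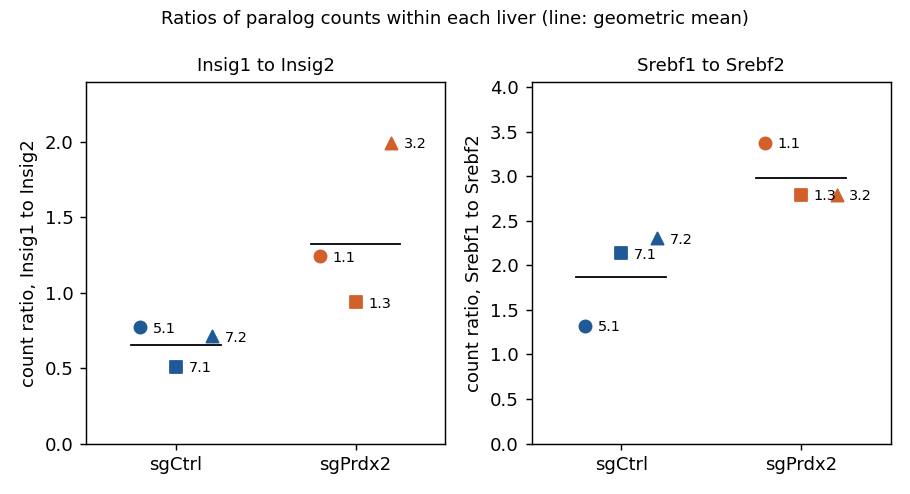
Ratio of counts of Insig1 to Insig2 (left) and of Srebf1 to Srebf2 (right) in each liver, labelled by mouse, with the geometric mean of each group as a line. All 3 sgPrdx2 livers lie above all 3 sgCtrl livers in both panels, by log2 differences of 1.02 and 0.67.

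Of the 4 SREBP targets outside the pathway, 1 rose. Stard4, a carrier of cholesterol between membranes, measured 41.5, 50.6 and 38.2 CPM in sgCtrl and 86.2, 77.8 and 64.5 CPM in sgPrdx2 livers. Its groups were apart and it rose by a log2 fold change of 0.81 (SE 0.16, adjusted p = 0.0466). The call held without sgPrdx2 3.2 (adjusted p = 0.0376) but not without sgCtrl 5.1 (0.138), 7.1 (0.0509) or 7.2 (0.168), or without sgPrdx2 1.1 (0.155) or 1.3 (0.0915). Lpin1, a phosphatidate phosphatase, measured 37.5, 34.3 and 38.5 CPM and 47.4, 47.9 and 37.5 CPM. Liver 3.2 lay among the controls, and the log2 fold change was 0.27 (SE 0.14, adjusted p = 0.260), turning to -0.09 with total counts and -0.08 with housekeeping scaling.

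The desaturases of polyunsaturated fatty acids lay nearer to the controls. Fads1 measured 291.1, 356.5 and 310.0 CPM in sgCtrl and 366.1, 415.0 and 464.3 CPM in sgPrdx2 livers. The groups were narrowly apart, with a log2 fold change of 0.38 (SE 0.16, adjusted p = 0.181) that was -0.005 with housekeeping scaling. Fads2 measured 338.8, 371.8 and 396.3 CPM and 325.5, 388.7 and 484.0 CPM. Its groups overlapped, and the log2 fold change of 0.11 (SE 0.18, adjusted p = 0.714) became -0.27 with total counts, -0.28 with housekeeping scaling and -0.04 without sgPrdx2 3.2.

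Per kilobase of annotated exon, the levels in sgCtrl livers ran from 112 ± 8.76 CPM for Fads2 (SD, n = 3) to 1.22 ± 0.31 CPM for Idi1. Fads1 followed at 66.3 ± 7.0 CPM per kilobase. Sc5d, Ebp and Hmgcs1, at 52.4 ± 13.8, 51.5 ± 14.4 and 47.6 ± 13.5 CPM per kilobase, were within their spread of each other. The 4 genes that rose were in the middle and lower ranks of this order, with Fdft1 at 19.6, Msmo1 at 15.3, Stard4 at 7.77 and Tm7sf2 at 6.66 CPM per kilobase. Exon lengths joined over all annotated transcripts overstate the length of a gene's main transcript, so this order is approximate.

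Other genes around the pathway were counted in 7 lists of 56 genes, of which edgeR called 3, all lower in sgPrdx2. Of all genes it called 1.54% lower and 1.79% higher. At an unadjusted p below 0.05, 13.0% of all genes were higher and 11.9% lower. DESeq2 called 7.58% of all genes higher and 5.78% lower. The isoprenoid branch, which leads from farnesyl diphosphate to prenylated proteins, dolichol and ubiquinone, had a median log2 fold change of -0.05 over 11 genes with TMM and -0.41 with total counts, with 0 calls by edgeR (2 lower with total counts), 2 genes higher at an unadjusted p below 0.05 and 1 call by DESeq2. With total counts 3041 of all 17032 genes were called lower. Rabggta, a subunit of the enzyme that prenylates Rab proteins, had the smallest p in this branch, at 0.59 on the log2 scale (adjusted p = 0.0654), followed by Pdss2, of the ubiquinone side chain, at 0.46 (adjusted p = 0.175). The machinery of SREBP cleavage and sterol-driven degradation in the endoplasmic reticulum had a median of 0.12 over 12 genes with TMM and -0.26 with total counts, with 0 calls by edgeR, 0 at an unadjusted p below 0.05 and 0 calls by DESeq2. Its smallest p values belonged to Aup1, at 0.43 on the log2 scale (adjusted p = 0.223), and Mbtps2, a protease that cleaves SREBPs, at -0.41 (adjusted p = 0.285). The electron donors of the sterol oxygenases had a median of 0.43 over 4 genes, or 0.05 with total counts, with 0 calls by edgeR, 2 at an unadjusted p below 0.05 and 2 calls by DESeq2. Of these Cyb5a, cytochrome b5, stood at 0.70 on the log2 scale (adjusted p = 0.0575) and Cyb5b at 0.51 (adjusted p = 0.130).

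Sterol transport and esterification had a median log2 fold change of -0.18 over 10 genes, with 1 fallen, and of -0.56 with 5 fallen with total counts and -0.57 with 2 fallen with housekeeping scaling. These 2 scalings called 3041 and 919 of all 17032 genes lower. DESeq2 called 2 of the 10 genes lower, Soat1 and Gramd1b, the latter at -0.67 with edgeR (adjusted p = 0.0588). Soat1, which esterifies cholesterol for storage, measured 47.9, 39.1 and 45.4 CPM in sgCtrl and 25.6, 28.3 and 28.0 CPM in sgPrdx2 livers. It fell in all 3 of the latter, with a log2 fold change of -0.69 (SE 0.12, adjusted p = 0.0396). Soat2, in the same list, did not fall, at 0.125 on the log2 scale (SE 0.157, adjusted p = 0.647) with overlapping groups. Among SREBP-1c targets of fatty acid synthesis, with a median of 0.02 over 8 genes and -0.35 with total counts, Me1 fell. Me1, malic enzyme, measured 50.6, 34.4 and 53.8 CPM against 21.7, 21.6 and 23.1 CPM, a log2 fold change of -1.06 (SE 0.18, adjusted p = 0.0373). In the same list Acss2, which makes acetyl-CoA from acetate, measured 65.7, 82.3 and 48.3 CPM and 135.8, 90.2 and 134.9 CPM. Its groups did not overlap in the other direction, with 0.88 on the log2 scale (SE 0.24, adjusted p = 0.0797), and DESeq2 called Me1 lower and Acss2 higher. In the list of LXR and its targets, with a median of 0.26 over 7 genes and -0.12 with total counts, Abcg1 fell. Abcg1, a sterol exporter abundant in macrophages, measured 40.6, 31.2 and 41.2 CPM against 21.5, 23.9 and 19.4 CPM, a log2 fold change of -0.80 (SE 0.15, adjusted p = 0.0409). Abcg5 and Abcg8, whose products together export sterol into bile, were higher in every sgPrdx2 liver, at 0.75 (SE 0.18, adjusted p = 0.0612) and 0.71 (SE 0.17, adjusted p = 0.0624) on the log2 scale. DESeq2 called both higher and Abcg1 lower, and without sgPrdx2 3.2 edgeR called Abcg5 (adjusted p = 0.0451). Elsewhere in this list Mylip was lower in every sgPrdx2 liver, at -0.555 on the log2 scale (SE 0.202, adjusted p = 0.147). Nr1h3 was higher in every one, at 0.463 (SE 0.161, adjusted p = 0.135). Groups overlapped for Abca1, at -0.039 (SE 0.217, adjusted p = 0.923), and Nr1h2, at 0.262 (SE 0.166, adjusted p = 0.359). Gramd1b, Soat2, Acss2, Abcg5, Abcg8, Mylip, Nr1h3, Abca1 and Nr1h2 were named after their values had been seen. The groups did not overlap for any of Soat1, Me1 and Abcg1. All 3 calls were lost without sgCtrl 5.1 (adjusted p = 0.119 to 0.129), sgCtrl 7.2 (0.143 to 0.160), sgPrdx2 1.1 (0.144 to 0.148) or sgPrdx2 1.3 (0.0810 to 0.0843), that of Abcg1 also without sgPrdx2 3.2 (0.0512) and that of Soat1 after the length and GC correction (0.124). Lastly, 4 more SREBP-2 targets had a median of 0.48, or 0.09 with total counts, with 0 calls by edgeR, 2 at an unadjusted p below 0.05 and 1 call by DESeq2, led by Mmab at 0.66 (adjusted p = 0.0530) and Rdh11 at 0.40 (adjusted p = 0.148).

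**Figure D4:**
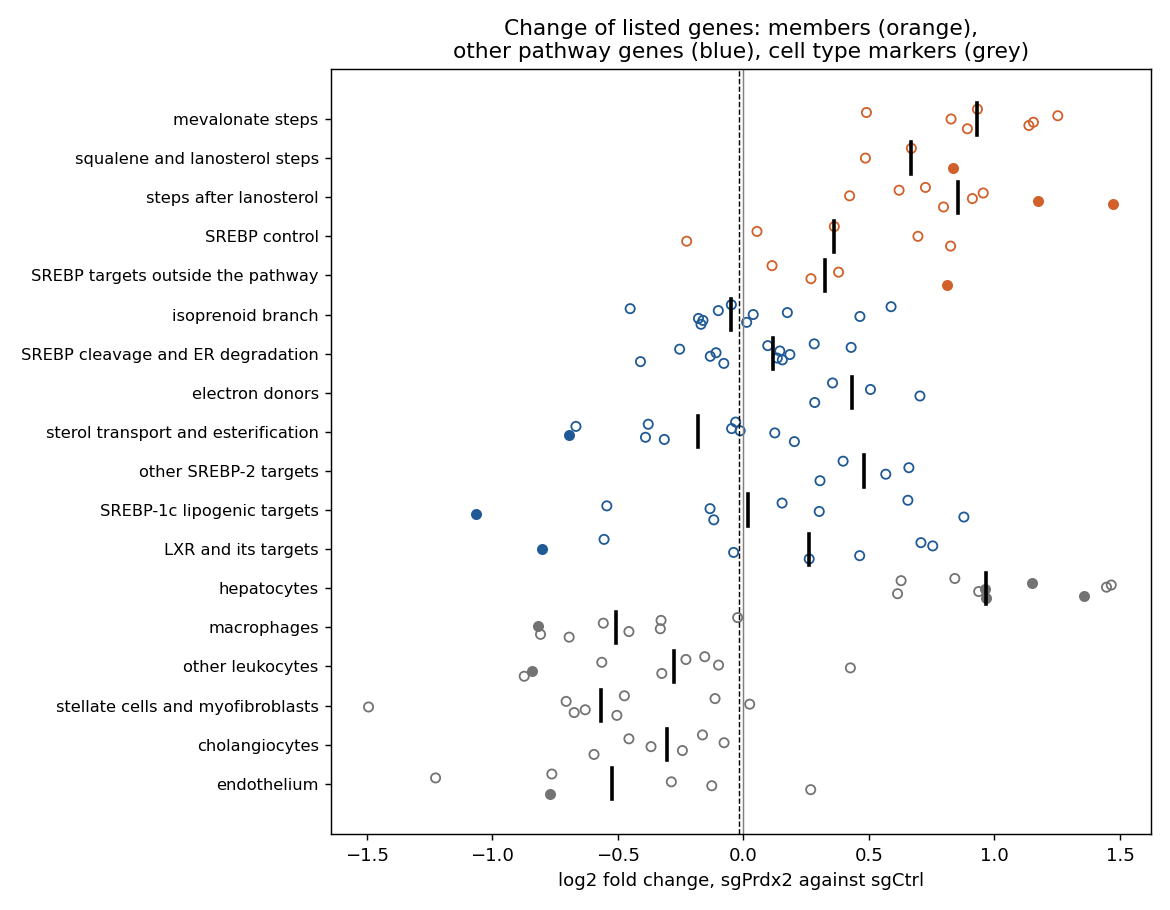
Log2 fold change (sgPrdx2 against sgCtrl) of every gene in the lists, with the 27 genes in orange, other pathway genes in blue and cell type markers in grey. Filled points passed edgeR's test, black bars are list medians and the dashed line is the median of all tested genes, which moves from -0.02 to -0.39 with total counts, where the medians of SREBP control, SREBP targets outside the pathway, SREBP cleavage, SREBP-1c and LXR lists turn negative.

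Cell type markers differed along with these genes. Of all genes edgeR called 1.79% higher and 1.54% lower. At an unadjusted p below 0.05, 11.9% of all genes were lower, and DESeq2 called 5.78% lower. The 10 hepatocyte markers had a median log2 fold change of 0.97, with 4 called higher by edgeR, and summed to 77120 to 83120 CPM in sgCtrl and 132900 to 178000 CPM in sgPrdx2 livers. The 8 macrophage markers had a median of -0.51 with 1 called lower (3218 to 3626 CPM against 2232 to 2954 CPM), and 8 markers of other leukocytes had -0.28 with 1 called lower (178 to 207 CPM against 119 to 130 CPM). The 8 markers of stellate cells and myofibroblasts had -0.57 (2017 to 2346 CPM against 1474 to 1502 CPM) and the 6 of cholangiocytes -0.31 (1625 to 1854 CPM against 1217 to 1391 CPM), each with 0 calls by edgeR, 5 and 2 at an unadjusted p below 0.05, and 3 and 1 calls by DESeq2. The 6 endothelial markers had -0.53 with 1 called lower (208 to 244 CPM against 148 to 231 CPM). These medians kept their signs with total counts and with housekeeping scaling, under which edgeR called 5 and 4 of the stellate and 2 and 2 of the cholangiocyte markers lower. Under these scalings 3041 and 919 of all 17032 genes were called lower. The cholangiocyte median was -0.06 without sgCtrl 5.1, the endothelial median -0.28 without sgPrdx2 3.2 and that of other leukocytes -0.17 without sgPrdx2 1.1 and -0.43 without sgCtrl 7.1. The part of these markers in the results on the 27 genes was not tested, and in bulk RNA fewer cells of a type and less RNA per cell cannot be told apart.

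Promoter windows from RefSeq (GRCm38.p6, 250 bases before to 50 after a transcript start) were found for 22 of the 27 genes, in 30 windows, and searched on both strands for TCACNCCAC (an SREBP element), CACGTG (an E-box, also bound by SREBP-1) and CCAAT (the box of NF-Y, a factor that acts together with SREBPs). CCAAT occurred in 18 of the 22 genes, compared with 41.1% of 27025 genes, or 37.4% of 32851 windows. The genes without it were Acat2, Scap, Lpin1 and Fads2. CACGTG occurred in 5 of the 22 (Hsd17b7, Sc5d, Dhcr7, Insig1 and Scap), compared with 8.09% of genes and 7.15% of windows. TCACNCCAC occurred in Hmgcs1 alone of the 22, compared with 1.44% of genes and 1.24% of windows. Genes with several windows had more chances of a match, and windows of all genes are not matched for base composition. Only 11 of the 30 windows had no annotated exon among their 250 upstream bases. For Idi1, Tm7sf2 and starts 2 and 3 of Dhcr7 all 250 bases lie in exons. Only exact matches within the windows were counted. Variant forms of an SREBP element, and sites outside the windows, were not searched, so a gene without TCACNCCAC may still hold such an element.

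The 250 bases upstream of 4 starts are shown because they carry each motif in a gene of this pathway and contain no annotated exon. Capitals mark the motifs in either direction, so ATTGG is CCAAT on the other strand. Hmgcs1 (chr13:119690101-119690350, plus strand) holds TCACCCCAC among 3 CCAAT boxes, Sc5d (chr9:42264301-42264550, minus strand) holds CACGTG and 1 CCAAT box, Ebp (chrX:8193513-8193762, minus strand) holds 2 CCAAT boxes, and Insig2 (chr1:121332590-121332839, minus strand), the gene with the lowest fold change, holds 3 at the start shown and none at its other starts.
Hmgcs1: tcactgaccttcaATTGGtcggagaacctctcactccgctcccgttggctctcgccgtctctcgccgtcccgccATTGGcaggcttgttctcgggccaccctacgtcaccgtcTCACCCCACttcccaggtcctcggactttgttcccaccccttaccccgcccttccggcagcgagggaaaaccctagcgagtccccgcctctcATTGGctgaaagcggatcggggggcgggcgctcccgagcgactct
Sc5d: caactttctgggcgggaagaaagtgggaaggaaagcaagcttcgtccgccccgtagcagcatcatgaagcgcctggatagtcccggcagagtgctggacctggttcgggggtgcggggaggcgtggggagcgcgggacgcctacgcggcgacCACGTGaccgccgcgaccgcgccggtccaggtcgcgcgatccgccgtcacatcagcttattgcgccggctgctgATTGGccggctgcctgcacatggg
Ebp: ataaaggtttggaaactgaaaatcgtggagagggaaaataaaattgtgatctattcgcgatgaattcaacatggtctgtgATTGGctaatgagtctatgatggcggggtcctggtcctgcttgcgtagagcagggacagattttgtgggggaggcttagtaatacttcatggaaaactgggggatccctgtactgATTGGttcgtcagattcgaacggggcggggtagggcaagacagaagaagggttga
Insig2: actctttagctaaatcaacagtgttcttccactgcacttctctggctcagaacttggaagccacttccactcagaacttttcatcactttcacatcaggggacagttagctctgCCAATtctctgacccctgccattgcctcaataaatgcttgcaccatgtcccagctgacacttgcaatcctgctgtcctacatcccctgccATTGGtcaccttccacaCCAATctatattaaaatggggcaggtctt
CCAAT thus occurred upstream of Hmgcs1 and Ebp, higher in every sgPrdx2 liver, and of 1 start of Insig2, whose groups overlapped. Part of the Mvk window, 42 bases, lies in an exon of the neighboring gene Mmab, and both genes had non-overlapping groups, with log2 fold changes of 1.16 and 0.66.

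**Figure D5:**
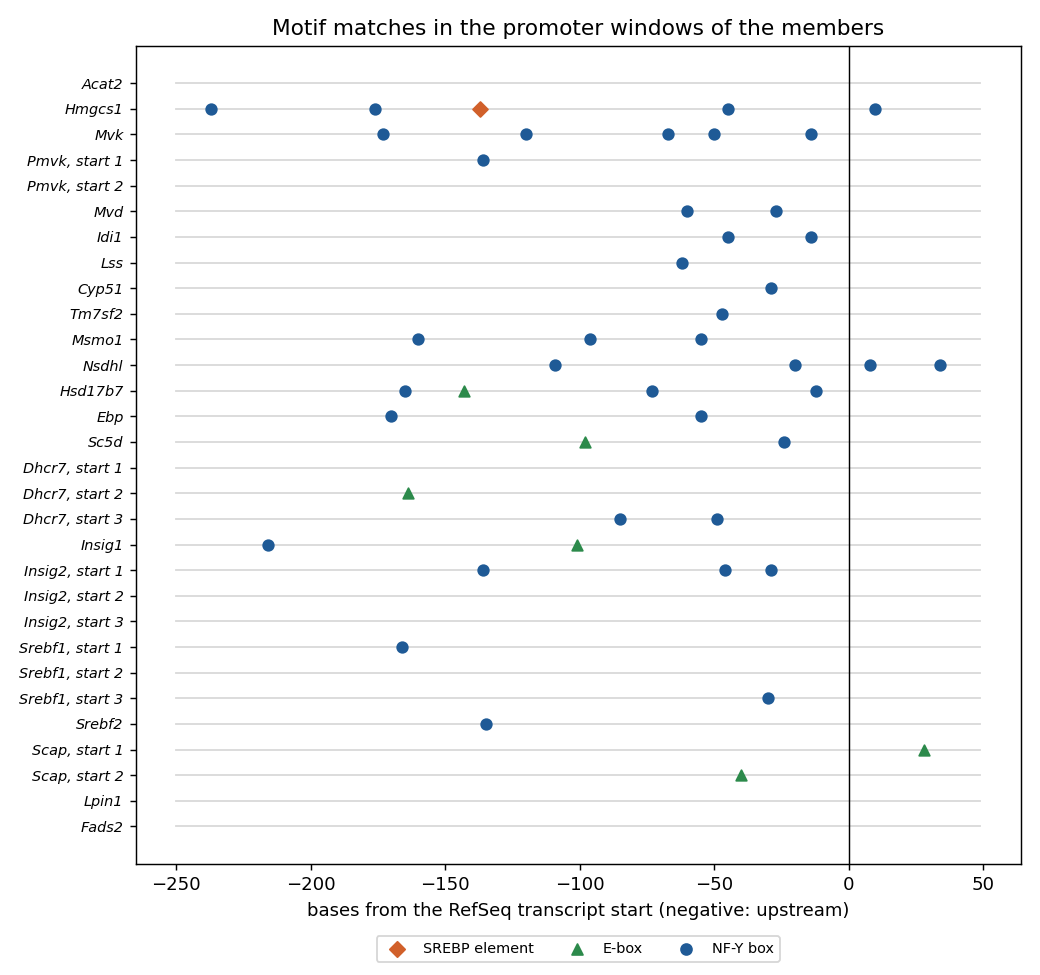
Positions of motif matches in the 30 promoter windows of 22 genes, in bases from the RefSeq transcript start (negative is upstream), with SREBP elements as diamonds, E-boxes as triangles and CCAAT boxes as circles. CCAAT boxes occur in 18 genes and mostly upstream of the start. The only form of SREBP element searched, TCACNCCAC, occurs in Hmgcs1 alone.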

How the data were processed

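RNA from 6 whole livers, 3 sgCtrl and 3 sgPrdx2, was sequenced, and the authors deposited raw counts per gene, which were used as deposited. The submitters' processing notes name HISAT2, HTSeq, DESeq2 and the build GRCm38. Versions, annotation and strandedness are not given in the sources used here. The authors' DESeq2 table of fold changes and p-values was not used. Genes passing filterByExpr (minimum count 10) were fitted in edgeR 4.0.16 (R 4.3.3) with TMM factors and the quasi-likelihood test, sgPrdx2 minus sgCtrl, without covariates, and called at an adjusted p under 0.05. The SE is the log2 fold change over the root of F. CPM values use TMM-scaled library sizes, in which a floor of 3 counts is 0.0555 to 0.0921 CPM. No 2 libraries were copies (chi-square per degree of freedom at least 31.9). That the mice were separate animals rests on their numbers, and p-values set the group difference against the spread among them. The most alike livers within each group shared the number before the point, 7.1 with 7.2 (chi-square per degree of freedom 59.3) and 1.1 with 1.3 (31.9). What that number stands for is not given, and it was not modeled. Simulated counts for 17032 genes gave 205 calls, with 200 of 200 genes of 4-fold change recovered.

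DESeq2 1.42.0, limma 3.58.1, other normalizations, filters and thresholds, and omission of each liver were the alternatives. A length and GC correction was added after the data were seen. The 27 genes and all lists were chosen with earlier results of these data known. Text names all 27 genes, Prdx2 and, per pathway list, the called genes (up to 4) or otherwise the 2 with the smallest p. Exon lengths and overlaps came from GENCODE M21 and promoters from RefSeq.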

Additional observations from a re-analysis of the deposited data

How the results depend on the processing

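The 567 genes called became 3247 with total counts, 989 with housekeeping scaling, 2048 with DESeq2, 1128 without a filter on low counts, 1012 with the length and GC correction, 1767 at an adjusted p under 0.10 and 0 at 0.01 (4241 at an unadjusted p below 0.05), and ranged from 0 to 619 on leaving out 1 liver. Of the 27 genes, 4 called became 2, 0, 15, 13, 7, 14 and 0 in the same order (21 at an unadjusted p below 0.05), and 0 to 3 on leaving out 1 liver. For the pathway lists, 3 called became 10 with total counts, 11 with DESeq2, 9 without the filter, 7 with the length and GC correction, 10 at 0.10 and 0 at 0.01, and 0 to 3 on leaving out 1 liver. The other alternatives stayed within 1.5 times of these counts. The cause of these shifts was not tested. The median of the 27 genes, 0.80, was 0.42 with total counts, 0.41 with housekeeping scaling and 0.60 to 0.89 on leaving out 1 liver. Higher and lower calls, 305 and 262, were 206 and 3041 with total counts and 70 and 919 with housekeeping scaling.

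Directions turned as follows. With total counts, values became -0.003 (median of SREBP control), -0.044 (median of SREBP targets outside the pathway), -0.31 (Srebf2), -0.003 (Scap), -0.093 (Lpin1) and -0.27 (Fads2), and with housekeeping scaling -0.042 (the latter median), -0.30 (Srebf2), -0.079 (Lpin1), -0.005 (Fads1) and -0.28 (Fads2). Among the pathway lists, medians of SREBP cleavage (0.12), SREBP-1c targets (0.02) and LXR (0.26) became -0.26, -0.35 and -0.12 with total counts and -0.25, -0.34 and -0.13 with housekeeping scaling, and that of SREBP-1c targets -0.06 without sgCtrl 7.1 and -0.05 without sgPrdx2 3.2. Insig2 was 0.35 without sgCtrl 7.1 and 0.058 without sgPrdx2 3.2, Srebf2 -0.025 without sgPrdx2 1.1 and Fads2 -0.037 without sgPrdx2 3.2. Prdx2, at 0.01, was -0.005 with upper-quartile factors or without a filter, -0.37 with total counts, -0.38 with housekeeping scaling, 0.00 with limma-voom, -0.052 without sgCtrl 5.1 or with the length and GC correction, -0.008 without sgCtrl 7.1 and -0.17 without sgPrdx2 3.2. A tally over the 27 genes covered all alternatives except the adjusted p thresholds of 0.01 and 0.10. In it 342 values kept direction and side of the threshold, 25 became called, 26 lost their call and 12 changed sign. No paired analysis was possible because the groups share no replicate numbers.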
